A study of Arabidopsis thaliana with 10 samples.

Results

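Seedlings of the Arabidopsis thaliana mutant gun1-9 grown on norflurazon were compared with untreated wild type seedlings, gene by gene. The comparison takes 4 of the 10 RNA sequencing libraries of the study, chosen by their genotype and treatment labels alone: 2 libraries of gun1-9 on norflurazon and 2 of untreated wild type. All 33602 genes listed in the count tables were considered, and 20628 passed the filter on low counts and were tested. The study asks how plastid damage changes nuclear transcripts in plants with altered plastid-to-nucleus signalling. Here the question is which genes lay at the untreated wild type level in the mutant on the herbicide and which stayed far from it.

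The first group was gun1-9 with 5 µM norflurazon in the medium for 5 days. The second was wild type with 5 µM norflurazon for 5 days, whose 2 libraries are set beside the others as values. The third was wild type without treatment. Seedlings of all 3 groups were 5 days old. All were whole seedlings in the Col6-3 background, kept in continuous light (24 h) at 100 µmol per square metre per second and 22 °C on the same salt medium, and each library was made from RNA of a pool of over 100 plants. No untreated gun1-9 library was used here, so the effect of the mutation and that of the herbicide cannot be told apart in any value below. What the gun1-9 mutation does to the gene is not stated in the labels. They also leave unsaid whether the 2 libraries of a group came from plants grown apart. The p-values therefore measure only the spread between libraries of the same group, pooled over all 10 libraries, which may be technical. In such whole-seedling RNA, fewer cells of a type and less RNA per cell cannot be told apart.

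Norflurazon blocks phytoene desaturase, so carotenoids are lost and chloroplasts bleach in light. In wild type, the damaged plastid then signals to the nucleus, and nuclear genes of photosynthesis are transcribed at low levels. GUN1 is a plastid pentatricopeptide repeat protein known from mutants that keep part of this nuclear expression when plastids are damaged. GUN1 itself (AT2G31400, chr2:13386954-13390854, minus strand in TAIR10.1) had 154 and 147 CPM in gun1-9, 191 and 284 CPM in wild type on norflurazon and 538 and 455 CPM in untreated wild type. CPM values are counts scaled to library size and to the TMM factor of the library. Both gun1-9 libraries lay below both untreated ones, at a log2 fold change of -1.72 ± 0.17 (SE, edgeR quasi-likelihood test, Benjamini-Hochberg adjusted p = 4.44e-06). The transcript was lower but still counted in the mutant, and wild type on norflurazon was also below untreated wild type, so its level checks the labels only in part.

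Total counts were 21196295 and 24792558 in gun1-9, 19018594 and 22082438 in wild type on norflurazon and 21024333 and 22407221 in untreated wild type. Replicates had Spearman correlations of 0.9963 in gun1-9, 0.9838 in wild type on norflurazon and 0.9937 in untreated wild type. TMM factors were 0.955 and 0.939 in gun1-9, 1.257 and 1.271 in wild type on norflurazon and 0.722 and 0.796 in untreated wild type. In untreated wild type a few very abundant transcripts take a large part of the counts. The factors of wild type on norflurazon lay furthest from the untreated ones, so its levels relative to untreated depend most on this scaling. Scaling by library size alone moved the median log2 fold change of all genes to 0.32, against 0.0066 with TMM, so all changes are given relative to the TMM scale.

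About as many genes were called higher as lower on the TMM scale. With a 2-fold limit, more genes were placed near the untreated level than far from it. Of the 20628 genes tested, 6049 were called higher in gun1-9 on norflurazon than in untreated wild type, or 29.3%, and 6346 were called lower, or 30.8%, at an adjusted p under 0.05. With library size alone the split was 9072 higher and 4355 lower. Because so many genes passed this test, each gene was also placed by the size of its difference. A gene stayed far from the untreated level where a test against a 2-fold threshold passed (edgeR glmTreat, adjusted p under 0.05): 1812 genes lay beyond 2-fold above, 8.78% of those tested, and 2376 lay beyond 2-fold below, 11.5%. A gene reached the untreated level where the 95% interval of its log2 fold change lay inside 2-fold either way, which held for 10034 genes, or 48.6%. The other 6406 genes, or 31.1%, met neither criterion and are called undetermined. They include genes with an estimate close to the 2-fold line and genes with a wide interval. Reaching the level does not mean no difference, as 3595 of the 10034 were also called higher or lower. The 2 classes use unlike criteria, since the interval is not adjusted for the number of genes and the 2-fold test is. With a 1.5-fold band, 4425 genes lay near the untreated level, against 4188 beyond 2-fold, so their relative size depends on these choices.

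The genes that stayed far below included many of the most abundant transcripts of a green seedling. Of the 130 genes with over 1000 CPM in untreated wild type, which held 37.9% of the scaled counts there, 53 were beyond 2-fold below, 0 were beyond 2-fold above and 37 were within 2-fold. Of the 10044 genes at 10 to 100 CPM, 6702 were within 2-fold, 1027 were beyond 2-fold below and 405 beyond 2-fold above. Among the 2395 genes under 1 CPM, 742 were beyond 2-fold above. These bands use the untreated values that also enter the difference, so the shares describe where the genes lie and are not a test.

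**Figure D1:**
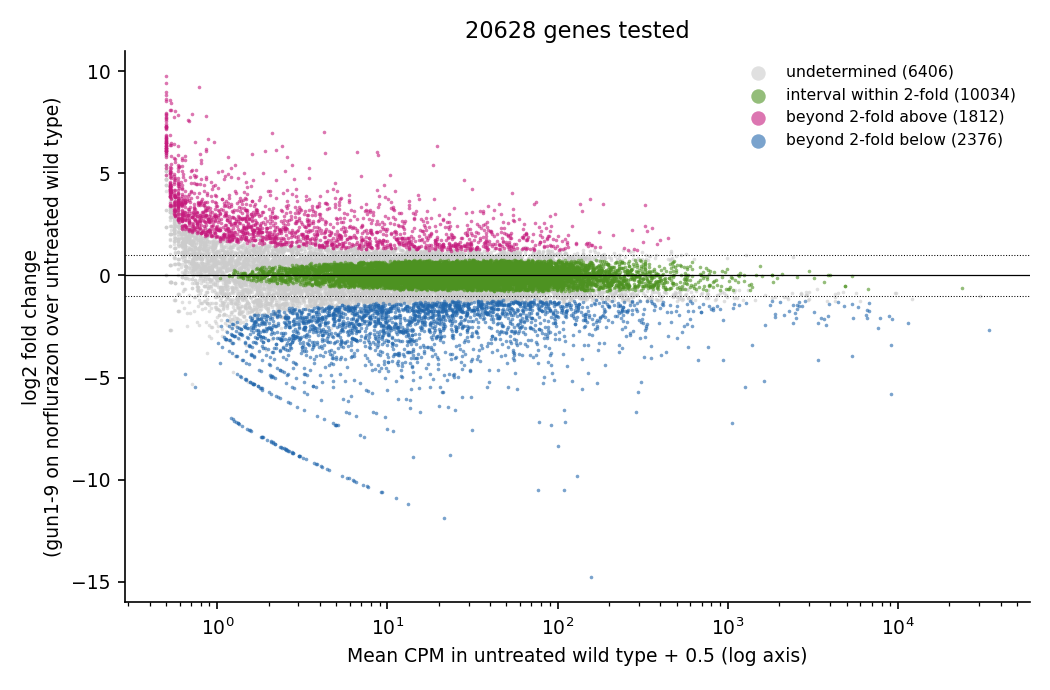
Each point is 1 of the 20628 genes tested, with its mean CPM in untreated wild type plus 0.5 on a log axis against its fitted log2 fold change, gun1-9 on norflurazon over untreated wild type. The 10034 genes whose interval lay within 2-fold form the central band between the dotted lines at 2-fold, with 1812 genes beyond it above and 2376 below. At the right edge, over 1000 CPM, points lie in or below the band.

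Antenna genes had the lowest median of the photosynthesis lists. The light-harvesting chlorophyll a/b binding proteins gather light for both photosystems and are the best known targets of this plastid signal. All 20 of their genes were tested. Of these, 19 were called lower and 0 higher, 17 lay beyond 2-fold below, and 1, LHCA5, was within 2-fold. The median log2 fold change was -2.09, against 0.0066 over all genes. Summed over the 20 genes, expression was 26829 and 28478 CPM in gun1-9, 1749.8 and 1256 CPM in wild type on norflurazon and 147550.0 and 129950.0 CPM in untreated wild type. The gun1-9 sum was 19.9% of the untreated one, and the sum in wild type on norflurazon was 1.08%. Wild type on norflurazon is compared with the same untreated libraries, so its values are set side by side here and below without a test.

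The members of the major antenna of photosystem II, the LHCB1 to LHCB3 trimer proteins, spread widely. LHCB1.4 (chr2:14524607-14525918, plus strand) had 155 and 167 CPM in gun1-9, 0.251 and 0.178 CPM in wild type on norflurazon and 8982 and 9194 CPM in untreated wild type. It had the lowest log2 fold change of the list, -5.82 ± 0.19 (SE, adjusted p = 2.04e-09), and remained at 1.77% of the untreated level. LHCB1.3 had 5126 and 5462 CPM in gun1-9, 291 and 178 CPM in wild type on norflurazon and 36154 and 31909 CPM in untreated wild type. This was the most abundant antenna transcript in gun1-9 and in untreated wild type, at 15.6% of untreated in gun1-9. LHCB2.1 had 831 and 1051 CPM in gun1-9, 17.3 and 14.3 CPM in wild type on norflurazon and 2798 and 2261 CPM in untreated wild type, with a log2 fold change of -1.43 ± 0.18 (SE, adjusted p = 2.9e-05). In each of these genes the gun1-9 libraries lay above both libraries of wild type on norflurazon and below both untreated libraries. LHCB1.1, LHCB1.2 and LHCB1.3 are near-identical copies, and the counting could split or drop reads that they share.

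The minor antenna of photosystem II and the antenna of photosystem I were also spread, with LHCB4.2 and LHCB6 far below at 18.9% and 23.52% of untreated. LHCB4.1, a linker between the trimers and the core, had 3079.6 and 3063 CPM in gun1-9, 461 and 351 CPM in wild type on norflurazon and 6109 and 5222 CPM in untreated wild type. Its log2 fold change of -0.88 ± 0.15 (SE, adjusted p = 0.000269) left it undetermined between the 2 classes. LHCB4.3 had 31.4 and 33.4 CPM in gun1-9, against 60.2 and 42.9 CPM in untreated wild type (log2 fold change -0.67 ± 0.17, SE, adjusted p = 0.00522), a call lost without gun1-9 replicate 1 (adjusted p = 0.0612) or without untreated replicate 1 (adjusted p = 0.13). LHCA5, a substoichiometric antenna protein of photosystem I, had 252 and 279 CPM in gun1-9, 92.1 and 67.9 CPM in wild type on norflurazon and 326 and 282 CPM in untreated wild type. Its interval ran over -0.52 to 0.13, so its level was reached within 2-fold, while LHCA1 to LHCA4 lay at 23.4%, 30.5%, 34.5% and 22.4% of untreated in gun1-9.

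**Figure D2:**
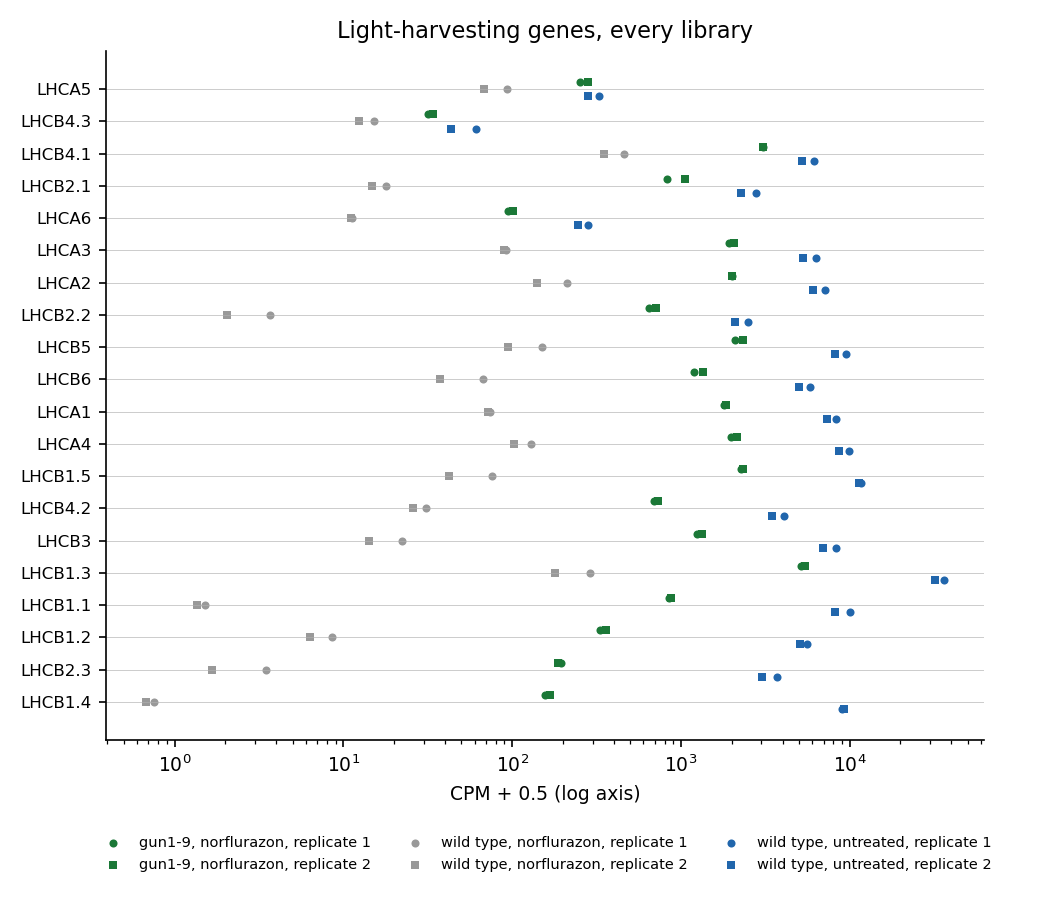
CPM plus 0.5 on a log axis of the 20 light-harvesting genes in each library, gun1-9 on norflurazon in green, wild type on norflurazon in grey and untreated wild type in blue, with circles for replicate 1 and squares for replicate 2. In every gene the green points lie between the grey and the blue ones. The gap to the blue points is widest for LHCB1.4, at 1.77% of untreated, and narrowest for LHCA5, at 87.3%.

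Nuclear genes of the photosystems and of electron transport were lower throughout. All 33 were called lower, 21 lay beyond 2-fold below and 1 was within 2-fold, with a median log2 fold change of -1.49. Their sums were 36413 and 37468 CPM in gun1-9, 6961 and 5224 CPM in wild type on norflurazon and 111010.0 and 94969 CPM in untreated wild type. Plastocyanin carries electrons to photosystem I. Its minor gene PETE1 had 57.3 and 54.7 CPM in gun1-9, 3.39 and 2.35 CPM in wild type on norflurazon and 348 and 309.6 CPM in untreated wild type and its major gene PETE2 had 1587 and 1547 CPM in gun1-9, 609 and 367 CPM in wild type on norflurazon and 7269 and 5910.5 CPM in untreated wild type. Their log2 fold changes were -2.55 ± 0.14 and -2.07 ± 0.21 (SE, adjusted p = 3.31e-08 and 3.98e-06), so both paralogues stayed far below. Of the stromal subunits that dock ferredoxin, PSAD1 and PSAD2 stood at 19.9% and 18.8% of untreated in gun1-9.

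Of the photosystem II genes, some lay far below the untreated level and others were undetermined. The oxygen-evolving subunits PSBP1 and PSBQ2 were far below, at 29.4% and 20.2% of untreated. PSBO1, the manganese-stabilising protein, had 5237 and 5116 CPM in gun1-9, 965 and 746 CPM in wild type on norflurazon and 10236 and 8920.0 CPM in untreated wild type, a log2 fold change of -0.89 ± 0.15 (SE, adjusted p = 0.000246). PSBS, the sensor of energy dissipation, had 1692 and 1736 CPM in gun1-9, 72.9 and 67.5 CPM in wild type on norflurazon and 3312 and 2669 CPM in untreated wild type, at 57.3% of untreated. PSBO1 and PSBS were both undetermined. PGR5, a protein of cyclic electron flow around photosystem I, was the member within 2-fold. It had 266 and 258 CPM in gun1-9, 115 and 75.9 CPM in wild type on norflurazon and 365 and 350.3 CPM in untreated wild type. Its call (log2 fold change -0.45 ± 0.16, SE, adjusted p = 0.0284) was lost whichever of the 4 libraries was left out, with adjusted p between 0.0955 and 0.174.

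Carbon fixation genes came nearer. The 21 Calvin cycle genes, with the small subunits of Rubisco, Rubisco activase and carbonic anhydrase CA1, were all called lower. Only 2 of them, RBCS1B and SBPASE, lay beyond 2-fold below, 3 were within 2-fold and 16 were undetermined. The median log2 fold change was -0.97, and the sums were 65757 and 65314 CPM in gun1-9, 11271 and 11074 CPM in wild type on norflurazon and 136020.0 and 111440.0 CPM in untreated wild type. RBCS1A, the most abundant small subunit gene, had 16490.0 and 13613 CPM in gun1-9, 3816 and 4262 CPM in wild type on norflurazon and 32481 and 28312 CPM in untreated wild type. RBCS1B had 687 and 593 CPM in gun1-9, 88.5 and 78.6 CPM in wild type on norflurazon and 1849 and 1690.4 CPM in untreated wild type, with a log2 fold change of -1.47 ± 0.18 (SE, adjusted p = 2.77e-05). RBCS1B, RBCS2B and RBCS3B are near-identical neighbours, and their reads may have been split. CA1 had 5096 and 5643 CPM in gun1-9, 6.07 and 5.13 CPM in wild type on norflurazon and 13730.0 and 10516 CPM in untreated wild type, the widest gap between the 2 groups on norflurazon among the 21, with 44.3% of untreated in gun1-9 and 0.0462% in wild type.

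The members that reached the untreated level within 2-fold were RPE, RCA and FBA2. RPE, the ribulose phosphate epimerase, had 883 and 965 CPM in gun1-9, against 1421 and 1335 CPM in untreated wild type (log2 fold change -0.58 ± 0.11, SE, adjusted p = 0.000932). RCA, which reactivates Rubisco, had 14828 and 15476 CPM in gun1-9, 2288 and 2097 CPM in wild type on norflurazon and 26462 and 20854 CPM in untreated wild type. All 3 were still called lower, and in each both gun1-9 libraries lay below both untreated ones.

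Tetrapyrrole synthesis, which makes chlorophyll and haem from glutamate, had more genes called lower than higher. Of 29 genes tested out of 30, 18 were called lower, 2 higher and 9 were not called, and 5 lay beyond 2-fold below, 1 beyond 2-fold above and 12 within 2-fold. The median log2 fold change was -0.60. PORB, which reduces protochlorophyllide in light, had 50.4 and 53.9 CPM in gun1-9, 17.7 and 15.6 CPM in wild type on norflurazon and 617 and 549.8 CPM in untreated wild type and was the lowest member, at -3.48 ± 0.15 (SE, adjusted p = 7.7e-09). The others beyond 2-fold below were PORC, the chlorophyllide a oxygenase CAO, the cyclase subunit CRD1 and GUN4, the activator of magnesium chelatase. GUN4 had 178 and 172 CPM in gun1-9, 45.2 and 32.0 CPM in wild type on norflurazon and 642 and 528 CPM in untreated wild type. GUN5, the large chelatase subunit, had 2579 and 2823 CPM in gun1-9, 355 and 345 CPM in wild type on norflurazon and 5336 and 4107 CPM in untreated wild type, and at 57.2% of untreated it was undetermined.

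Several early and shared steps were within 2-fold. HEMA1, the glutamyl-tRNA reductase that commits glutamate to the pathway, had 926 and 890.3 CPM in gun1-9, 117 and 166 CPM in wild type on norflurazon and 1216 and 1086 CPM in untreated wild type, with an interval of -0.67 to -0.01. PPOX2, a protoporphyrinogen oxidase, had 48.4 and 47.6 CPM in gun1-9, against 43.8 and 47.8 CPM in untreated wild type and was nearest to the untreated level of the list (log2 fold change 0.07 ± 0.11, SE, adjusted p = 0.618). The 2 members called higher were the second reductase HEMA2 and the ferrochelatase FC1, and 1 member was called higher without gun1-9 replicate 2 or without untreated replicate 2. HEMA2 had 79.4 and 77.5 CPM in gun1-9, 33.5 and 34.6 CPM in wild type on norflurazon and 33.5 and 27.9 CPM in untreated wild type (log2 fold change 1.35 ± 0.12, SE, adjusted p = 1.84e-06), so it stood above the untreated level in the mutant, with no overlap between the groups. FC1 had 49.6 and 61.5 CPM in gun1-9, 46.3 and 76.0 CPM in wild type on norflurazon and 36.6 and 32.5 CPM in untreated wild type, and the other ferrochelatase gene, FC2, had 138 and 139 CPM in gun1-9, 28.5 and 34.2 CPM in wild type on norflurazon and 211 and 191 CPM in untreated wild type.

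Carotenoid genes were mostly within 2-fold. Of 14 tested, 9 were within it, against 48.6% of all genes tested. By level in untreated wild type, the share of all genes was 66.7% at 10 to 100 CPM and 63.8% at 100 to 1000 CPM. The carotenoid share lay near these, so it is not particular to the list. Beyond 2-fold lay 2 below and 0 above, and the median log2 fold change was 0.02. PDS3, the phytoene desaturase that norflurazon inhibits, had 221 and 242 CPM in gun1-9, 88.9 and 96.2 CPM in wild type on norflurazon and 231 and 199 CPM in untreated wild type. PSY, the phytoene synthase one step earlier, had 257 and 292 CPM in gun1-9, 76.1 and 78.7 CPM in wild type on norflurazon and 831 and 720.5 CPM in untreated wild type and stayed below (log2 fold change -1.498 ± 0.13, SE, adjusted p = 1.05e-06). The 2 beta-carotene hydroxylases went opposite ways. BCH1 had 251 and 241 CPM in gun1-9, against 149 and 137 CPM in untreated wild type (log2 fold change 0.78 ± 0.11, adjusted p = 7.13e-05), and BCH2 had 21.4 and 22.5 CPM in gun1-9, against 113 and 100.5 CPM in untreated wild type (log2 fold change -2.28 ± 0.11, adjusted p = 1.85e-08). LYCB, a lycopene cyclase, had 175 and 180.2 CPM in gun1-9, 68.6 and 67.2 CPM in wild type on norflurazon and 201 and 166 CPM in untreated wild type, with overlapping values in gun1-9 and untreated wild type.

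Photorespiration, which recycles the product of Rubisco's oxygenation through peroxisomes and mitochondria, reached 80.3% of the untreated sum in gun1-9 and 19.5% in wild type on norflurazon. Of 16 genes tested, 9 were called lower, 2 higher and 5 were not called, with a median log2 fold change of -0.53. Within 2-fold were 8, against 48.6% of all genes tested. Their sums were 28790.0 and 30751 CPM in gun1-9, 7148 and 7295 CPM in wild type on norflurazon and 40196 and 33979 CPM in untreated wild type. GGT1, a peroxisomal glutamate:glyoxylate aminotransferase, had 5222 and 5358 CPM in gun1-9, 1371 and 1276 CPM in wild type on norflurazon and 5598 and 5152 CPM in untreated wild type. Its gun1-9 and untreated values overlapped, with a log2 fold change of -0.02 ± 0.12 (SE, adjusted p = 0.884). SGAT, the serine:glyoxylate aminotransferase beside it in the peroxisome, had 4398 and 4443 CPM in gun1-9, 1004 and 1182 CPM in wild type on norflurazon and 2547 and 2253 CPM in untreated wild type and was called higher (log2 fold change 0.88 ± 0.13, SE, adjusted p = 0.000111). The genes beyond 2-fold below were the plastid envelope carriers DIT1 and PLGG1 and the plastid glutamate synthase GLU1. DIT1, the dicarboxylate carrier, had 245 and 258 CPM in gun1-9, against 896 and 747 CPM in untreated wild type (log2 fold change -1.71 ± 0.19, SE, adjusted p = 1.22e-05).

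Most genes of the plastid's own machinery lay within 2-fold of the untreated level. So did 48.6% of all genes tested. By level in untreated wild type, that share was 66.7% at 10 to 100 CPM and 63.8% at 100 to 1000 CPM. Of the 31 plastid ribosomal protein genes tested, 26 were within 2-fold and 0 lay beyond it, although 16 were called lower, with a median log2 fold change of -0.40. The 16 became 10 without either gun1-9 library, 9 without untreated replicate 1 and 8 with library size only. PRPS1 had 647 and 748 CPM in gun1-9, 288 and 214 CPM in wild type on norflurazon and 757 and 629.9 CPM in untreated wild type, an interval of -0.33 to 0.35. PRPL12A was lowest, with 241 and 237 CPM in gun1-9, against 558 and 449 CPM in untreated wild type (log2 fold change -1.07 ± 0.14, SE, adjusted p = 3.97e-05). PRPS21, at 431 and 396 CPM in gun1-9, against 563 and 483 CPM in untreated wild type, was the called member nearest to untreated, and its call (adjusted p = 0.0364) was lost without gun1-9 replicate 1 (adjusted p = 0.11), gun1-9 replicate 2 (adjusted p = 0.29) or untreated replicate 1 (adjusted p = 0.369).

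For plastid transcription, 15 of 23 genes were within 2-fold, 11 were called higher, 4 lower, and 2 lay beyond 2-fold above. The 15 of 23 lay near the 66.7% of all genes at 10 to 100 CPM, so this share is not particular to the list. RPOTP, the phage-type RNA polymerase that transcribes plastid housekeeping genes, had 123 and 127 CPM in gun1-9, 99.3 and 113 CPM in wild type on norflurazon and 34.4 and 34.6 CPM in untreated wild type and was highest (log2 fold change 1.85 ± 0.11, SE, adjusted p = 6.62e-08). The other was FLN1, a fructokinase-like partner of the plastid-encoded polymerase, with 76.9 and 83.4 CPM in gun1-9, 67.3 and 63.5 CPM in wild type on norflurazon and 27.9 and 31.0 CPM in untreated wild type. PTAC16, a thylakoid-associated nucleoid protein, had 941 and 914 CPM in gun1-9, 90.0 and 61.7 CPM in wild type on norflurazon and 2016 and 1786 CPM in untreated wild type and was lowest at -1.03 ± 0.17 (SE, adjusted p = 0.000185). MURE, another polymerase-associated protein, had 61.4 and 66.5 CPM in gun1-9, 46.6 and 58.9 CPM in wild type on norflurazon and 63.0 and 62.4 CPM in untreated wild type. That was 102% of untreated in gun1-9 and 84.1% in wild type on norflurazon.

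Most import and protein quality genes stood at or above the untreated level. Of 10 genes of the envelope translocons TOC and TIC, 5 were called higher and 0 lower, and 6 were within 2-fold. Over all genes tested 29.3% were called higher and 30.8% lower, and 48.6% were within 2-fold. The receptor TOC33 had 225 and 225 CPM in gun1-9, 225 and 133 CPM in wild type on norflurazon and 80.1 and 75.2 CPM in untreated wild type (log2 fold change 1.53 ± 0.19, SE, adjusted p = 2.75e-05), and the inner membrane protein TIC40 had 133 and 125 CPM in gun1-9, 131 and 131 CPM in wild type on norflurazon and 121 and 115 CPM in untreated wild type. Of 16 plastid chaperones and proteases, 9 were called higher, 2 lower and 12 were within 2-fold, and the 2 became 1 without gun1-9 replicate 1, without untreated replicate 1 or with library size only. The chaperonin subunit CPN60B2 had 415 and 501 CPM in gun1-9, 85.2 and 106 CPM in wild type on norflurazon and 186 and 167 CPM in untreated wild type and lay beyond 2-fold above (log2 fold change 1.38 ± 0.15, SE, adjusted p = 7.49e-06). FTSH2, a thylakoid protease of photosystem II repair, had 1005 and 1279 CPM in gun1-9, 369.9 and 464 CPM in wild type on norflurazon and 1263 and 1023 CPM in untreated wild type, with overlapping values in gun1-9 and untreated wild type. DEG1, a lumenal protease, had 185 and 189.7 CPM in gun1-9, against 328 and 290.3 CPM in untreated wild type (log2 fold change -0.72 ± 0.11, SE, adjusted p = 0.000124).

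Most thylakoid lipid genes were within 2-fold. Of 11 tested out of 12, 8 were within 2-fold, against 48.6% of all genes tested, and 8 were called lower. By level in untreated wild type, the share of all genes within 2-fold was 66.7% at 10 to 100 CPM and 63.8% at 100 to 1000 CPM. The median log2 fold change was -0.59. MGD1, which makes most of the plastid's monogalactosyldiacylglycerol, had 131 and 136 CPM in gun1-9, 34.2 and 49.2 CPM in wild type on norflurazon and 144 and 128 CPM in untreated wild type. MGD2, an enzyme known for phosphate starvation, had 0.395 and 0.344 CPM in gun1-9, 0.670 and 0.677 CPM in wild type on norflurazon and 8.83 and 8.47 CPM in untreated wild type and lay far below (log2 fold change -4.53 ± 0.30, SE, adjusted p = 1.32e-07).

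Regulators that connect plastid state to nuclear transcription mostly stayed low. Of 9 tested out of 10, 7 were called lower, 1 higher and 2 lay beyond 2-fold below, with a median of -1.10. GLK1 and GLK2, transcription factors that activate antenna and chlorophyll genes, were both called lower. GLK1 had 104 and 101 CPM in gun1-9, 3.06 and 5.13 CPM in wild type on norflurazon and 214 and 203 CPM in untreated wild type, and GLK2 had 110.2 and 122 CPM in gun1-9, 30.0 and 32.2 CPM in wild type on norflurazon and 280.0 and 266 CPM in untreated wild type. Their log2 fold changes were -1.02 ± 0.15 and -1.23 ± 0.12 (SE, adjusted p = 0.000118 and 2.83e-06). GLK2 lay beyond 2-fold below and GLK1 was undetermined.

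The B-box gene BBX16 lay furthest below of this list. It had 3.26 and 2.28 CPM in gun1-9, 0 and 0 CPM in wild type on norflurazon and 99.2 and 89.8 CPM in untreated wild type (log2 fold change -5.10 ± 0.18, SE, adjusted p = 1.39e-08), so it remained at 2.93% of untreated. Its relatives BBX14 and BBX15 stood at 46.6% and 43.8%. HY5, a light-signalling bZIP factor, was the only one called higher, with 27.9 and 27.1 CPM in gun1-9, 65.7 and 48.8 CPM in wild type on norflurazon and 19.8 and 20.4 CPM in untreated wild type (log2 fold change 0.45 ± 0.14, SE, adjusted p = 0.0158). In HY5 and in the GATA factors GNC and CGA1, wild type on norflurazon lay above gun1-9, unlike in the GLK genes. PTM, an envelope-bound factor proposed to relay plastid signals, had 196 and 178 CPM in gun1-9, 109 and 213 CPM in wild type on norflurazon and 175 and 172 CPM in untreated wild type. ABI4 had 0 counts in both gun1-9 libraries and was not tested.

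Some genes lay within 2-fold of the untreated level in gun1-9 although wild type on norflurazon was far from it. Genes were named here by the ratio of wild type on norflurazon to untreated wild type, among those whose gun1-9 interval lay within 2-fold, so the values of all 3 groups chose them and are given as a description. The 6 lowest in wild type on norflurazon were CYP706A6, ATSPS4F, AT1G60590, AT3G28220, AT1G33170 and AT5G62240. CYP706A6, a cytochrome P450 gene, had 62.4 and 58.9 CPM in gun1-9, 0.0419 and 0.143 CPM in wild type on norflurazon and 93.5 and 82.0 CPM in untreated wild type, at 69.1% of untreated in gun1-9 and 0.105% in wild type on norflurazon. ATSPS4F, a sucrose phosphate synthase, had 279.9 and 300.1 CPM in gun1-9, 5.44 and 6.31 CPM in wild type on norflurazon and 483 and 423 CPM in untreated wild type. AT1G60590, a pectin lyase-like gene, had 38.5 and 30.7 CPM in gun1-9, 0.586 and 0.820 CPM in wild type on norflurazon and 36.9 and 30.8 CPM in untreated wild type, with overlapping values in gun1-9 and untreated wild type (interval -0.30 to 0.37). The other 3 lay between 82.8% and 136% of untreated in gun1-9. Of the 6, CYP706A6 and ATSPS4F were still called lower than untreated and AT5G62240 was called higher.

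The 6 highest in wild type on norflurazon were ACC2, AT3G53310, AT5G03495, GMI1, FLS1 and AT3G28160. ACC2, a homomeric acetyl-CoA carboxylase of fatty acid synthesis, had 19.2 and 17.3 CPM in gun1-9, 137 and 177 CPM in wild type on norflurazon and 15.3 and 14.8 CPM in untreated wild type. FLS1, the flavonol synthase, had 35.7 and 35.2 CPM in gun1-9, 152 and 187 CPM in wild type on norflurazon and 47.4 and 37.1 CPM in untreated wild type. GMI1, named for its induction by gamma irradiation and mitomycin C, had 9.59 and 9.24 CPM in gun1-9, 47.1 and 56.5 CPM in wild type on norflurazon and 10.3 and 9.08 CPM in untreated wild type, with overlapping values in gun1-9 and untreated wild type. The 6 lay between 83.8% and 127% of untreated in gun1-9, a range that the choice within 2-fold bounds.

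**Figure D3:**
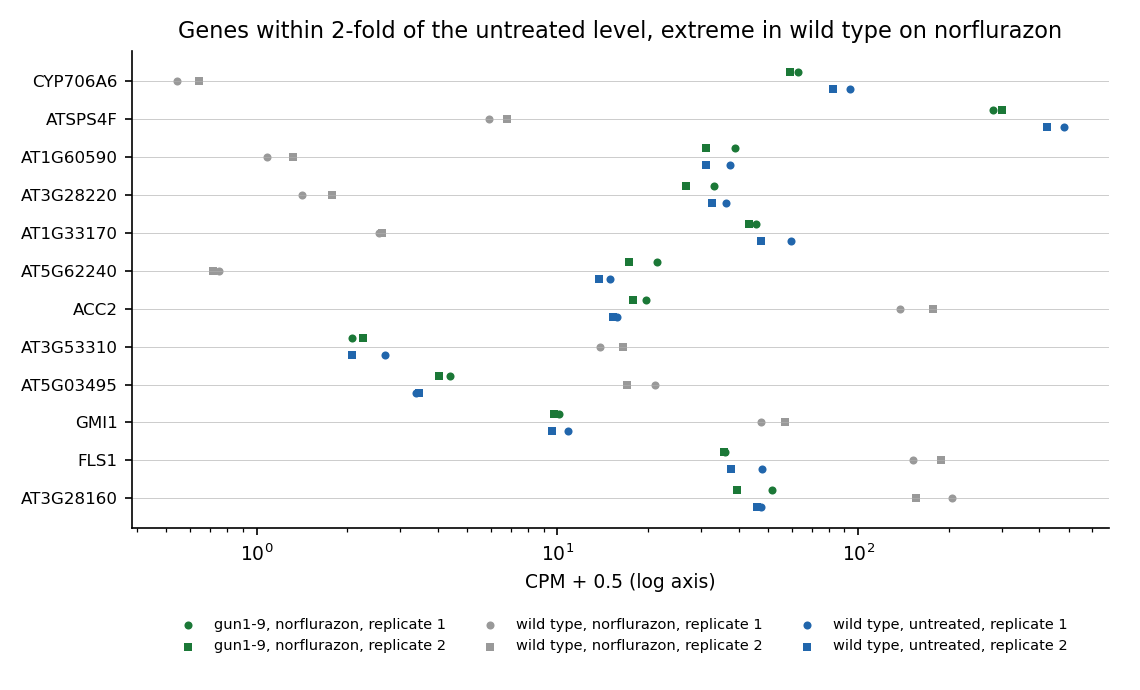
CPM plus 0.5 on a log axis of the 12 genes within 2-fold of the untreated level in gun1-9 that were lowest (upper 6) or highest (lower 6) in wild type on norflurazon, in each library. In all 12, green gun1-9 points lie nearer to the blue untreated points than the grey points of wild type on norflurazon do. The grey points lie to the left in the upper 6 and to the right in the lower 6. Both features are set by how the 12 were chosen.

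Heat shock genes had the highest median of the 28 gene lists. They encode chaperones that hold or refold damaged proteins and the factors that switch them on. Of 27 tested out of 28, 26 were called higher and all 26 lay beyond 2-fold above, against 8.78% of all genes. The median log2 fold change was 4.55, or 4.51 with HSP21, which had 0 counts in untreated wild type, set to its bound. Sums over the list were 3635 and 3492 CPM in gun1-9, 486 and 484 CPM in wild type on norflurazon and 132 and 122 CPM in untreated wild type. The gun1-9 libraries were thus above both wild type groups, and wild type on norflurazon was above untreated wild type.

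Among the small heat shock proteins, HSP17.6A (AT5G12030, chr5:3883957-3884838, minus strand), a cytosolic class II protein, had 179.6 and 155 CPM in gun1-9, 1.76 and 1.53 CPM in wild type on norflurazon and 0.395 and 0.168 CPM in untreated wild type (log2 fold change 9.23 ± 0.33, SE, adjusted p = 2.78e-09), a value that became 9.97 without untreated replicate 1. HSP22.0, of the endoplasmic reticulum, had 13.9 and 11.4 CPM in gun1-9, 0 and 0.321 CPM in wild type on norflurazon and 0.0659 and 0 CPM in untreated wild type. HSP23.6, of mitochondria, had 16.9 and 17.58 CPM in gun1-9, 1.42 and 1.89 CPM in wild type on norflurazon and 0.132 and 0 CPM in untreated wild type. Untreated wild type had 1 count of HSP22.0 and 2 of HSP23.6 in all. The summed counts were 414-fold higher (95% counting interval 74.1 to 16399) for HSP22.0 and 285-fold higher (95% counting interval 78.5 to 2355) for HSP23.6 in gun1-9 (adjusted p = 5.45e-07 and 2.56e-08). The plastid protein HSP21 had 1.24 and 1.38 CPM in gun1-9, against 0 and 0 CPM in untreated wild type, so it was at least 14.4-fold higher (adjusted p = 0.000457), a lower bound set by 3 counts over the group.

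The large chaperones named here reached higher levels in gun1-9 than HSP17.6A, and the heat shock factors named here lay below it. HSP70-4 had 1528 and 1558 CPM in gun1-9, 129 and 142 CPM in wild type on norflurazon and 20.7 and 17.43 CPM in untreated wild type, the highest level of the list in gun1-9. HSP90.1 had 544 and 516 CPM in gun1-9, 62.5 and 70.1 CPM in wild type on norflurazon and 8.70 and 7.68 CPM in untreated wild type, and the disaggregase HSP101 had 236 and 212 CPM in gun1-9, 16.2 and 24.1 CPM in wild type on norflurazon and 15.02 and 14.4 CPM in untreated wild type. Their log2 fold changes were 6.34 ± 0.16, 6.02 ± 0.14 and 3.93 ± 0.20 (SE, adjusted p = 4.23e-10, 4.23e-10 and 2.46e-08), with gun1-9 above all 4 wild type libraries. HSFA2, a heat shock factor that is itself heat-induced, had 45.0 and 39.6 CPM in gun1-9, 2.09 and 3.74 CPM in wild type on norflurazon and 0.461 and 0.449 CPM in untreated wild type (log2 fold change 6.52 ± 0.33, SE). HSFA7A, another factor, had 68.2 and 56.5 CPM in gun1-9, 92.0 and 64.8 CPM in wild type on norflurazon and 10.6 and 12.6 CPM in untreated wild type. In HSFA7A the values of gun1-9 and of wild type on norflurazon overlapped.

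HSP18.2 was the exception. It had 0.445 and 0.301 CPM in gun1-9, 0.544 and 0.285 CPM in wild type on norflurazon and 1.58 and 1.63 CPM in untreated wild type, under 2 CPM in every library, and was called lower (log2 fold change -2.10 ± 0.42, SE, adjusted p = 0.00101). The small heat shock genes of the cytosolic class are similar in sequence, and reads shared between them may have been dropped.

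**Figure D4:**
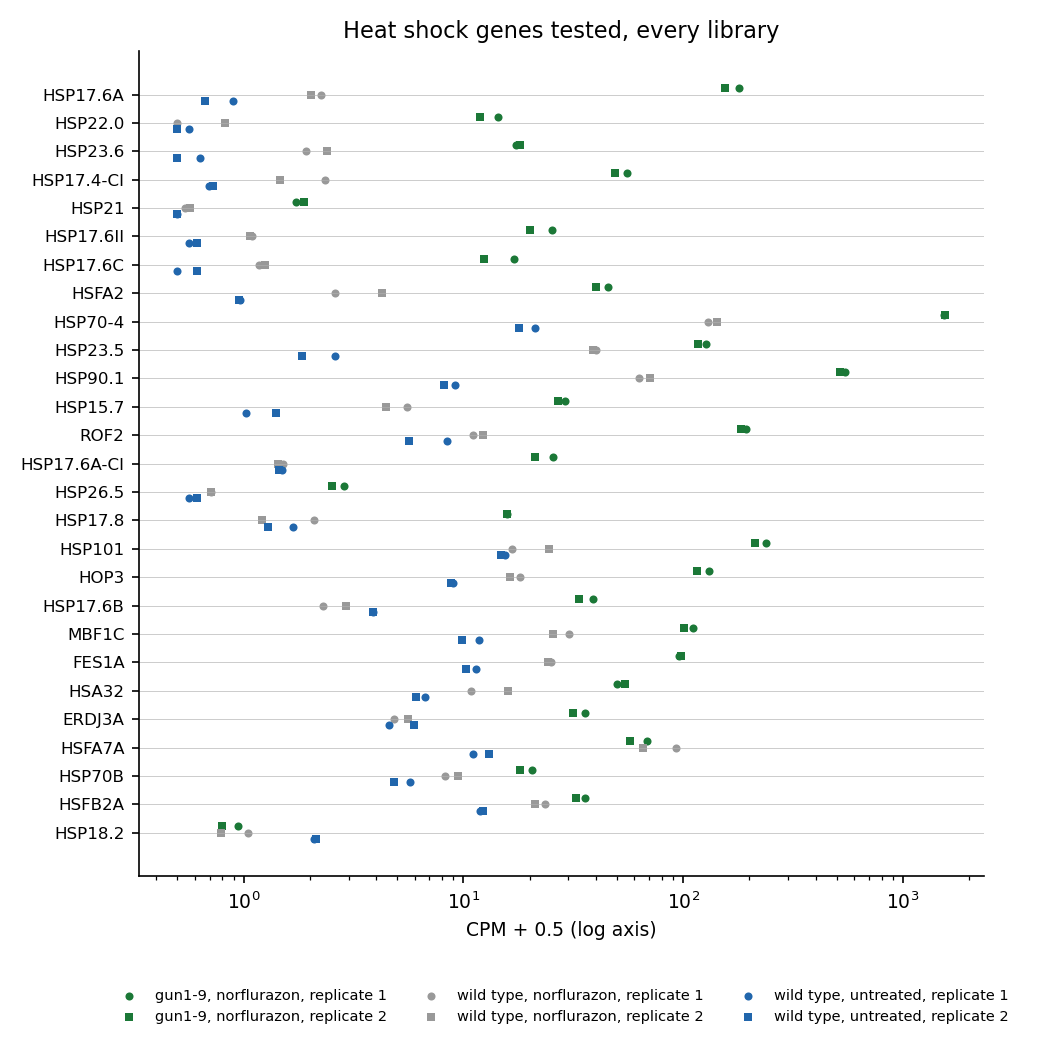
CPM plus 0.5 on a log axis of the 27 heat shock genes tested, in each library, ordered by log2 fold change. Green gun1-9 points lie right of the blue untreated points in 26 genes, from HSP17.6A at the top with 179.6 and 155 CPM to HSFB2A with 35.1 and 31.9 CPM. In HSP18.2, at the bottom, they lie to the left.

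Heat shock factors bind repeats of nGAAn, of which GAANNTTC is a minimal inverted pair. The letters were looked for on both strands in the 250 bases before the annotated gene start in TAIR10.1. Of 19908 tested nuclear protein-coding genes with such a window, 9.3% held the pair. It was in 6 of the 27 heat shock windows, or 22.2%, and 3 of these held more than 1. Of the 1724 windows of genes beyond 2-fold above, 9.92% held it, of the 2327 beyond 2-fold below 8.38%, and of the 9897 within 2-fold 9.36%. A match is a description of letters and no evidence of binding. The bases before the start are given for 3 genes that lay beyond 2-fold above and hold the pair: a small heat shock protein, the cytosolic ascorbate peroxidase APX2 and the plastid chaperonin CPN60B2. Capitals mark the pair, written 5′ to 3′ along the gene's strand with the last base next to the start, from the RefSeq copy of TAIR10.1.
HSP17.4-CI chr3:16984868-16985067, minus strand: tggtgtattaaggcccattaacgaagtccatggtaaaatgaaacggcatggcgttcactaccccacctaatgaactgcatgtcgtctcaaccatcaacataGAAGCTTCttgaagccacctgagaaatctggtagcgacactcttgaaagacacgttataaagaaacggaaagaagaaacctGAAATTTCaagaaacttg
APX2 chr3:2955956-2956155, plus strand: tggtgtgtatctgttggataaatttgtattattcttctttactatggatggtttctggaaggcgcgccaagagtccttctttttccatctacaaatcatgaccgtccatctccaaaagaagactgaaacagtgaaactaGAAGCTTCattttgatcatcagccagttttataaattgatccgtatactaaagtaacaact
CPN60B2 chr3:4388965-4389214, plus strand: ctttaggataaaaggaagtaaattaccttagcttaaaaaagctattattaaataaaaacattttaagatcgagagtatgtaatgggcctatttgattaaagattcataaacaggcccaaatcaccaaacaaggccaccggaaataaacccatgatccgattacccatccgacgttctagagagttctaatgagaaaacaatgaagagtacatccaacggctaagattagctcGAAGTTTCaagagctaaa
In HSP17.4-CI the 2 pairs begin at positions -99 and -18, counted back from -1 at the base before the start. The single pairs of APX2 and CPN60B2 begin at -61 and -18. HSP17.4-CI had 54.9 and 48.6 CPM in gun1-9, 1.84 and 0.962 CPM in wild type on norflurazon and 0.198 and 0.224 CPM in untreated wild type (log2 fold change 7.89 ± 0.41, SE, adjusted p = 2.62e-08), with no overlap between gun1-9 and the wild type groups. It overlaps a gene on the opposite strand, so part of its reads could belong to that gene.

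Oxidative stress genes were called in both directions, more of them higher. Of 23 tested, 14 were called higher and 5 lower, with a median log2 fold change of 1.04. Beyond 2-fold lay 10 above and 2 below, and 5 were within 2-fold. Over all genes tested, 29.3% were called higher and 30.8% lower, and 8.78% lay beyond 2-fold above and 11.5% below. The shares of the list called lower and beyond 2-fold below did not exceed this background. APX2, a heat- and light-induced peroxidase, had 2.77 and 2.84 CPM in gun1-9, 0 and 0.0356 CPM in wild type on norflurazon and 0 and 0 CPM in untreated wild type, at least 30.8-fold higher in gun1-9 than in untreated wild type (adjusted p = 9.88e-06). The ferritin FER1, which stores iron in plastids, had 1494 and 1508 CPM in gun1-9, 371 and 253 CPM in wild type on norflurazon and 139.5 and 132 CPM in untreated wild type (log2 fold change 3.47 ± 0.18, SE, adjusted p = 2.29e-08). The zinc finger gene ZAT12 had 65.8 and 70.3 CPM in gun1-9, 31.1 and 23.52 CPM in wild type on norflurazon and 0.790 and 1.402 CPM in untreated wild type. FSD1, the iron superoxide dismutase, had 128 and 134 CPM in gun1-9, 18.3 and 18.4 CPM in wild type on norflurazon and 1424 and 1343 CPM in untreated wild type and lay far below (log2 fold change -3.40 ± 0.12, SE, adjusted p = 3e-09). The copper/zinc enzyme CSD2 lay on the other side, with 783 and 748 CPM in gun1-9, 439 and 392 CPM in wild type on norflurazon and 179.8 and 169.6 CPM in untreated wild type. CAT2, the main leaf catalase, had 3858 and 4056 CPM in gun1-9, 1390.1 and 1587 CPM in wild type on norflurazon and 4455 and 3482 CPM in untreated wild type, with overlapping values in gun1-9 and untreated wild type.

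Genes of the mitochondrial dysfunction response, which respond to impaired mitochondria, were all higher. All 8 were called higher and 7 lay beyond 2-fold above, with a median log2 fold change of 3.24. UPOX had 114 and 116 CPM in gun1-9, 61.9 and 38.6 CPM in wild type on norflurazon and 2.24 and 1.91 CPM in untreated wild type (log2 fold change 5.80 ± 0.25, SE, adjusted p = 8.19e-09). AOX1A, the alternative oxidase, had 177 and 200.3 CPM in gun1-9, 80.3 and 73.0 CPM in wild type on norflurazon and 55.3 and 50.1 CPM in untreated wild type. UGT74E2, a glucosyltransferase, had 173 and 191 CPM in gun1-9, 5.53 and 5.99 CPM in wild type on norflurazon and 13.7 and 7.34 CPM in untreated wild type, and there wild type on norflurazon did not lie above untreated wild type. NDB2, with 7.66 and 7.22 CPM in gun1-9, against 5.86 and 5.44 CPM in untreated wild type, was within 2-fold, and its call (adjusted p = 0.0435) was lost whichever of the 4 libraries was left out, with adjusted p between 0.055 and 0.125.

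Sugar starvation genes, which rise when carbohydrate is short, stayed far above the untreated level in gun1-9. All 10 were called higher and lay beyond 2-fold above, with a median log2 fold change of 2.33. Their sums were 6038 and 6614 CPM in gun1-9, 4756 and 5546 CPM in wild type on norflurazon and 839 and 816 CPM in untreated wild type. ASN1, a dark-induced asparagine synthetase, had 742 and 978 CPM in gun1-9, 404 and 508 CPM in wild type on norflurazon and 56.1 and 50.6 CPM in untreated wild type (log2 fold change 4.01 ± 0.20, SE, adjusted p = 2.07e-08). DIN10, a raffinose synthase family gene, had 3407 and 3715 CPM in gun1-9, 2631 and 3472 CPM in wild type on norflurazon and 329 and 321 CPM in untreated wild type. TPS9, the lowest of the list, had 246 and 236 CPM in gun1-9, against 97.1 and 94.97 CPM in untreated wild type (log2 fold change 1.33 ± 0.12, SE, adjusted p = 1.97e-06).

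Nitrogen assimilation genes were called in both directions. Of 11 tested, 6 were called lower and all 6 lay beyond 2-fold below, 3 were called higher and 3 were within 2-fold. Over all genes tested, 30.8% were called lower, 29.3% were called higher and 11.5% lay beyond 2-fold below. The share of the list called higher thus lay near the background. Plastid glutamine synthetase GLN2 had 1589 and 1987 CPM in gun1-9, 192 and 163 CPM in wild type on norflurazon and 4935 and 3959 CPM in untreated wild type (log2 fold change -1.31 ± 0.16, SE, adjusted p = 2.18e-05), while the cytosolic GLN1.2 had 453 and 495 CPM in gun1-9, 268 and 272 CPM in wild type on norflurazon and 502 and 445 CPM in untreated wild type. The nitrate reductases lay in different classes, NIA1 far below and NIA2 within 2-fold, with NIA1 at 36.3% and NIA2 at 81.0% of untreated in gun1-9. GDH2, a glutamate dehydrogenase, had 465 and 506 CPM in gun1-9, 925 and 759 CPM in wild type on norflurazon and 87.5 and 93.1 CPM in untreated wild type and was highest (log2 fold change 2.43 ± 0.13, SE, adjusted p = 4e-08). The nitrate transporter NRT2.1 had 0 counts in both groups on norflurazon and 0.725 and 0.785 CPM in untreated wild type, at least 10.9-fold lower in gun1-9 (adjusted p = 0.00062).

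LOX2 had the lowest fitted value of all genes tested, and the myrosinase gene TGG2 was also far below. LOX2 (AT3G45140, chr3:16525245-16529352, plus strand), the plastid lipoxygenase that starts jasmonate synthesis, had 0 counts in both gun1-9 libraries and 170.1 and 142 CPM in untreated wild type, at least 2260.2-fold lower (adjusted p = 3e-09). In wild type on norflurazon it had 0.0837 and 0.143 CPM. TGG2, a myrosinase that cleaves glucosinolates, had 0.148 and 0 CPM in gun1-9, 3.06 and 4.81 CPM in wild type on norflurazon and 112 and 103 CPM in untreated wild type. With 3 counts in gun1-9 it was 1558-fold lower (95% counting interval 533 to 7561) (adjusted p = 6.52e-09). Wild type on norflurazon had 0.0726% of the untreated level of LOX2 and 3.65% of that of TGG2.

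Aliphatic glucosinolate synthesis, which makes defence compounds from methionine, stayed low. Of 16 genes tested out of 17, 13 were called lower and 12 lay beyond 2-fold below, with a median log2 fold change of -3.30. CYP79F1 (chr1:5608682-5612064, plus strand), an early core enzyme, had 0 counts in all 4 libraries on norflurazon and 13.6 and 11.9 CPM in untreated wild type, at least 185-fold lower in gun1-9 (adjusted p = 9.82e-07). The regulator MYB29 also had 0 counts in these 4 libraries, against 5.73 and 8.35 CPM in untreated wild type, while MYB28 had 4.55 and 3.31 CPM in gun1-9, 5.07 and 5.45 CPM in wild type on norflurazon and 74.1 and 78.5 CPM in untreated wild type. Not all members were low. SOT18, a sulfotransferase, had 14.8 and 14.9 CPM in gun1-9, 8.66 and 9.62 CPM in wild type on norflurazon and 14.03 and 12.9 CPM in untreated wild type, and MAM3, a chain elongation enzyme, had 5.78 and 6.71 CPM in gun1-9, 1.93 and 2.57 CPM in wild type on norflurazon and 0.922 and 1.63 CPM in untreated wild type (log2 fold change 2.27 ± 0.33, SE, adjusted p = 8.5e-05). Summed over the list, gun1-9 had 66.4% of the untreated level, a sum that IIL1 and UGT74C1 dominate.

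Indolic glucosinolate genes, which start from tryptophan, were mostly called lower. Of 8 tested out of 9, 7 were called lower and 4 lay beyond 2-fold below, with a median of -1.43. CYP79B2 had 5.04 and 4.43 CPM in gun1-9, 5.02 and 5.91 CPM in wild type on norflurazon and 30.4 and 35.7 CPM in untreated wild type (log2 fold change -2.80 ± 0.16, SE, adjusted p = 4.44e-08). MYB51, a regulator of this branch, was called higher, with 19.6 and 18.23 CPM in gun1-9, 18.0 and 34.8 CPM in wild type on norflurazon and 10.7 and 11.1 CPM in untreated wild type (adjusted p = 0.025), and lost the call whichever of the 4 libraries was left out (adjusted p between 0.0537 and 0.0861).

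Flavonoid genes were called in both directions, more of them lower. Of 22 tested out of 23, 11 were called lower, 3 higher (7 with library size only) and 8 were not called. Beyond 2-fold below lay 9, and 6 were within 2-fold. Over all genes tested, 30.8% were called lower and 29.3% higher, so the 3 called higher did not exceed the background. The late anthocyanin genes DFR and LDOX were lowest. LDOX had 0.0494 and 0.0430 CPM in gun1-9, 1.00 and 1.496 CPM in wild type on norflurazon and 10.9 and 9.53 CPM in untreated wild type, with 2 counts in gun1-9, 221-fold lower (95% counting interval 60.8 to 1835) than in untreated wild type (adjusted p = 2.39e-07). The entry enzyme chalcone synthase, CHS, had 328 and 291 CPM in gun1-9, 1219.6 and 1420.2 CPM in wild type on norflurazon and 183 and 145 CPM in untreated wild type and was called higher (log2 fold change 0.92 ± 0.16, SE, adjusted p = 0.000325). The flavonol regulator MYB12 had 6.82 and 5.80 CPM in gun1-9, 14.2 and 13.0 CPM in wild type on norflurazon and 0.461 and 1.35 CPM in untreated wild type (log2 fold change 2.75 ± 0.30, SE, adjusted p = 9.3e-06), which became 3.80 without untreated replicate 2. UGT78D2, a flavonoid glucosyltransferase, had 68.2 and 75.4 CPM in gun1-9, 64.8 and 64.8 CPM in wild type on norflurazon and 73.8 and 68.0 CPM in untreated wild type. Summed over the list, gun1-9 had 87.2% of the untreated level and wild type on norflurazon 229%.

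Abscisic acid is made from carotenoids, whose synthesis norflurazon blocks. Of 17 genes tested out of 20, 5 were called higher, 4 lower and 8 were not called, with a median log2 fold change of 0.19. Over all genes 29.3% were called higher and 30.8% lower, so these counts lay near the background. The 4 became 2 without gun1-9 replicate 2, and the 5 became 10 with library size only. NCED3, the stress-induced enzyme that cleaves the carotenoid precursor, had 0.445 and 0.430 CPM in gun1-9, 0.251 and 0.178 CPM in wild type on norflurazon and 2.11 and 2.19 CPM in untreated wild type (log2 fold change -2.28 ± 0.34, SE, adjusted p = 0.000103). The catabolic hydroxylase CYP707A3 had 33.0 and 28.1 CPM in gun1-9, 35.6 and 72.2 CPM in wild type on norflurazon and 0.790 and 1.07 CPM in untreated wild type (log2 fold change 5.02 ± 0.44, SE, adjusted p = 1.39e-06), and CYP707A2 had 38.4 and 35.0 CPM in gun1-9, 0.921 and 0.891 CPM in wild type on norflurazon and 7.05 and 6.17 CPM in untreated wild type. Both hydroxylases stayed above, although wild type on norflurazon was on opposite sides of untreated wild type in them. RD29A, a response gene, had 16.7 and 13.6 CPM in gun1-9, 19.7 and 23.1 CPM in wild type on norflurazon and 13.9 and 13.3 CPM in untreated wild type.

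Several of the largest fitted differences, taken among genes reaching 10 CPM in 1 of the 2 groups, were outside these lists. AT2G21235, a basic leucine zipper gene, had 13.6 and 13.5 CPM in gun1-9, 0.502 and 0.855 CPM in wild type on norflurazon and 0 and 0.0561 CPM in untreated wild type. With 1 count in untreated wild type it was 448-fold higher (95% counting interval 80.1 to 17718) in gun1-9 (adjusted p = 2.56e-08). On the other side, AT3G16670, of the pollen Ole e 1 and extensin family, had 0.0494 and 0.0430 CPM in gun1-9, 4.35 and 4.31 CPM in wild type on norflurazon and 79.2 and 73.2 CPM in untreated wild type, 1652-fold lower (95% counting interval 457 to 13649) in gun1-9 (adjusted p = 3.57e-09). AT4G01390, a TRAF-like gene, and AT3G21950, a methyltransferase gene, had 0 counts in gun1-9, at least 303-fold lower and at least 155-fold lower (adjusted p = 2.74e-07 and 4.1e-08). In these 3 genes wild type on norflurazon was at most at 5.69% of the untreated level.

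Markers of cell types and of developmental state moved as well, and their part in the differences above was not tested. Of 10 root genes, 7 were called higher and 2 lower (0 lower without gun1-9 replicate 2 or untreated replicate 2), with a median of 1.34. PLT1, a root meristem factor, had 3.66 and 3.65 CPM in gun1-9, 3.52 and 4.42 CPM in wild type on norflurazon and 0.0659 and 0.336 CPM in untreated wild type (log2 fold change 4.08 ± 0.42, SE, adjusted p = 4.8e-06), a value that became 3.47 without untreated replicate 1 and 5.73 without replicate 2. In contrast, PYK10, an abundant root and hypocotyl glucosidase, had 1892 and 1755 CPM in gun1-9, 4284 and 4698 CPM in wild type on norflurazon and 1876 and 1753 CPM in untreated wild type. Their summed levels, which PYK10 dominates, were 2075 and 1915 CPM in gun1-9, 4380.1 and 4809 CPM in wild type on norflurazon and 1978 and 1855 CPM in untreated wild type. WOX5 had under 1 CPM in each library, and its call as lower was lost without gun1-9 replicate 2 (adjusted p = 0.142) or untreated replicate 2 (adjusted p = 0.151).

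Stomatal and vascular markers were mostly lower. Of 8 stomatal lineage genes, 6 were called lower and 0 higher, with sums of 74.3 and 65.3 CPM in gun1-9, 74.0 and 70.4 CPM in wild type on norflurazon and 129.6 and 121 CPM in untreated wild type. FAMA, a factor of guard cell fate, had 8.20 and 7.52 CPM in gun1-9, 8.08 and 11.2 CPM in wild type on norflurazon and 29.2 and 23.3 CPM in untreated wild type (log2 fold change -1.74 ± 0.18, SE, adjusted p = 6.63e-06), and TMM, a patterning receptor, had 27.8 and 24.9 CPM in gun1-9, 21.4 and 19.5 CPM in wild type on norflurazon and 25.6 and 22.9 CPM in untreated wild type. All 6 vascular genes were called lower, with sums of 119 and 135 CPM in gun1-9, 197 and 190.5 CPM in wild type on norflurazon and 406 and 332 CPM in untreated wild type. The xylem peptidase XCP1 had 1.28 and 1.59 CPM in gun1-9, 3.06 and 2.92 CPM in wild type on norflurazon and 19.4 and 15.8 CPM in untreated wild type (log2 fold change -3.60 ± 0.20, SE, adjusted p = 4.38e-08), and the phloem factor APL had 14.4 and 13.2 CPM in gun1-9, 17.9 and 19.5 CPM in wild type on norflurazon and 21.6 and 20.3 CPM in untreated wild type, a call (adjusted p = 0.00269) lost without gun1-9 replicate 2 (adjusted p = 0.0502).

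Seed storage genes rest on 1 library. All 9 tested of 10 were called lower, but their sums were 1.24 and 1.16 CPM in gun1-9, 7.74 and 29.2 CPM in wild type on norflurazon and 1.65 and 180.4 CPM in untreated wild type. Without gun1-9 replicate 2, 5 of them were called. Without untreated replicate 2, 0 were called and the list median was -0.467. CRU3, a cruciferin, had 0.148 and 0.172 CPM in gun1-9, against 0.395 and 61.4 CPM in untreated wild type, and its log2 fold change of -7.55 became -1.22 without that library (adjusted p = 0.68). No statement on seed genes is drawn from this list.

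Genes often used as a reference were mostly within 2-fold. Of 9, 7 were within it, against 48.6% of all genes tested, 4 were called higher and 0 lower, with a median of 0.08. EF1A had 1415 and 1550.1 CPM in gun1-9, 1172 and 1075 CPM in wild type on norflurazon and 1535 and 1378 CPM in untreated wild type. ACT8, an actin, had 1049.5 and 884 CPM in gun1-9, 2006 and 1846 CPM in wild type on norflurazon and 317 and 315 CPM in untreated wild type and lay beyond 2-fold above (log2 fold change 1.61 ± 0.13, SE, adjusted p = 6.09e-07). UBQ10 had 2137 and 2014 CPM in gun1-9, against 1606 and 1465 CPM in untreated wild type, a call (adjusted p = 0.0246) lost without gun1-9 replicate 1 (adjusted p = 0.0737) or untreated replicate 2 (adjusted p = 0.0745).

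**Figure D5:**
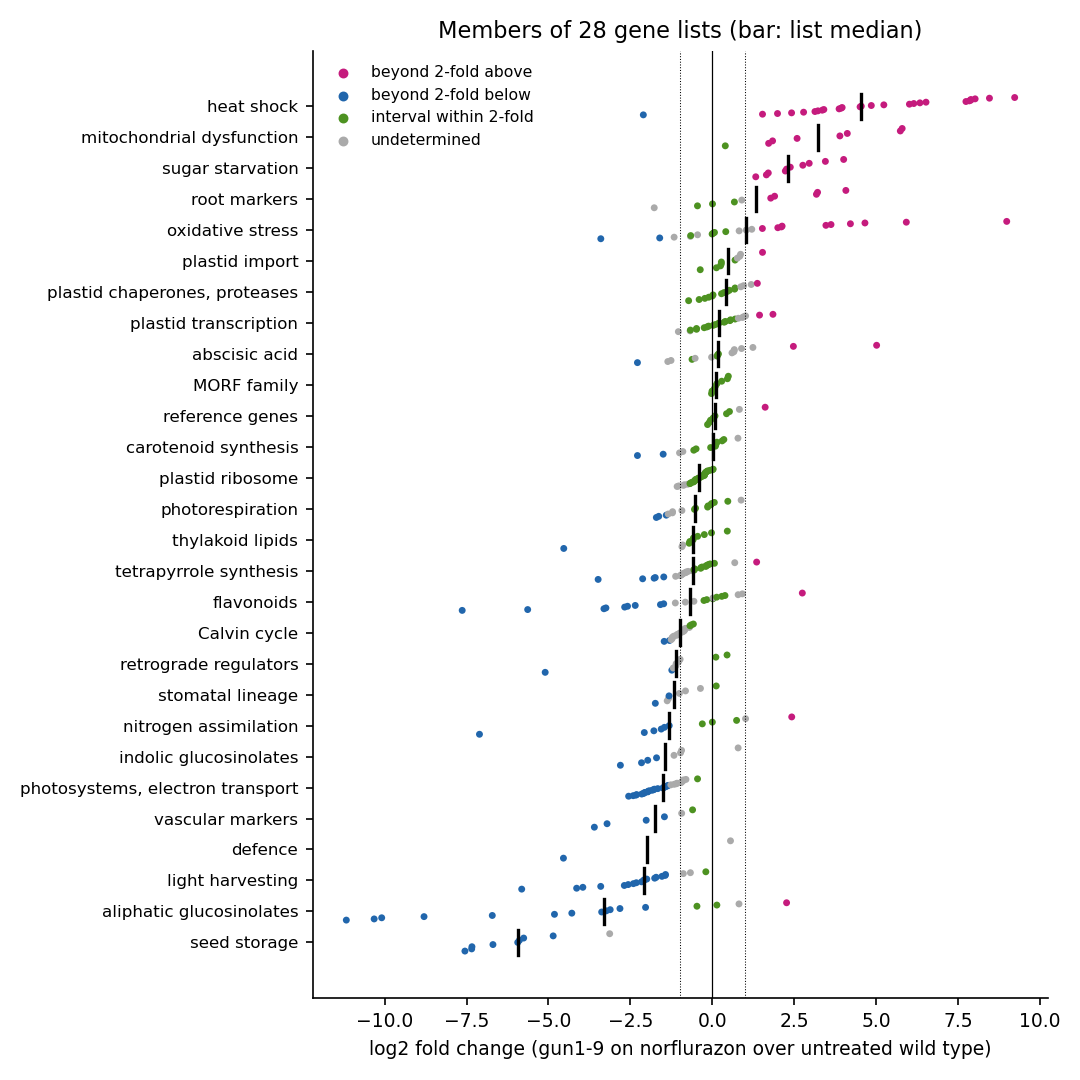
Fitted log2 fold change, gun1-9 on norflurazon over untreated wild type, of the tested members of 28 gene lists, coloured by class, with a black bar at the list median and dotted lines at 2-fold. The heat shock list has the median furthest right, at 4.55. Carotenoid genes have a median of 0.02, and light-harvesting and aliphatic glucosinolate genes lie to the left, with medians of -2.09 and -3.30. The seed storage points rest on 1 untreated library.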

How the data were processed

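The submitters' processing notes name the genome build TAIR10 and the tools HTSeq 0.6.1, Bowtie2 2.3.1, edgeR and TopHat2 2.1.1. Each deposited table lists whole-number counts for every gene, not normalized by the authors. Per the labels' protocols the libraries were stranded and selected for polyadenylated RNA. The strand setting of the counting is not given in the sources used here. Therefore values are uncertain for the 5084 tested genes that overlap a counted gene on the opposite strand. Of the 96 genes named by rule, 21 do: HSP17.4-CI, AT4G01390, LHCA5, PORB, BCH2, LYCB, DIT1, PRPL12A, CPN60B2, FTSH2, TOC132, MORF3, MORF4, CAT2, ASN1, PYK10, OLEO2, XCP1, EF1A, ATSPS4F and AT5G62240.

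All 10 libraries, in 5 groups of 2, were fitted together by group, without a block, in edgeR 4.0.16 (R 4.3.3; TMM, filterByExpr, glmQLFit, glmQLFTest). The common dispersion was 0.0123 (coefficient of variation 11.1%), with 5 residual and 6.9 prior degrees of freedom. The fit assumes 1 spread in all groups. The chi-square of replicate counts per degree of freedom was 5.823 in gun1-9, 36.05 in wild type on norflurazon and 6.554 in untreated wild type. P-values were adjusted over all 20628 genes (Benjamini-Hochberg, 0.05), and 12974 genes were filtered out. The SE is the size of the log2 fold change divided by the square root of F, and 95% intervals, not adjusted for the number of genes, use it with the t distribution. For 2 genes it could not be computed, and they count as undetermined. Folds against 0 counts are bounds at 3 counts over the group. Floors and exact counting intervals cover counting error only. The scripts were tested on simulated data.

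Named genes were GUN1, the 6 with the largest fold each way beyond 2-fold with at least 10 CPM, of each list the highest and lowest called member and the one nearest to untreated within 2-fold, and the 12 described with wild type on norflurazon (pseudocount 0.5 CPM for that ratio). Other members are named as examples, chosen after their values were seen. The libraries compared and the 28 gene lists (440 genes, 427 tested) were chosen with earlier results of these data known. Symbols and coordinates come from the RefSeq table of TAIR10.1, which matched 32835 of 33602 genes. Alternatives tried were DESeq2 1.42.0 size factors and test, library size only, no filter, limma-voom (limma 3.58.1), the 4 libraries alone, a replicate block, each library left out, a 1.5-fold band and a 4-fold threshold.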

Additional observations from a re-analysis of the deposited data

How the results depend on the processing

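The number of called genes, 12395, was 12445 with DESeq2 size factors, 13427 with library size only, 13052 with no filter, 11539 with DESeq2, 12277 with limma-voom, 13805 with the 4 libraries alone and 10304 to 10731 with each library left out. With the replicate block it was 12384. Replicate numbers mark no shared batch in the labels, and deviations of same-numbered libraries had a correlation of -0.00751, so the libraries share only a number. The 2376 genes beyond 2-fold below became 1566 with DESeq2, and the cause was not tested. By construction, a 4-fold threshold left 1372 genes beyond it (570 above and 802 below), and a 1.5-fold band left 4425 of the 10034 genes within it. The summed light-harvesting level in gun1-9, 27653 CPM, was 26168 with library size only. The median log2 fold change of that list over untreated wild type was -2.09 with TMM and -1.77 with library size only. That scaling changed the sign of 13 named genes, none of them called with TMM. Of these, LYCB (0.28), GGT1 (0.30) and CAT2 (0.32, log2 scale) became called higher, and the other 10, LHCA5, FTSH2, MORF4, MGD1, AT3G28220, AT1G33170, AT3G53310, GMI1, FLS1 and AT3G28160, were not called. It also moved list counts, with 5 photorespiration genes and 9 import genes called higher, and 3 oxidative stress genes and 5 thylakoid lipid genes called lower. Import genes called higher numbered 8 with no filter or the 4 libraries alone. Lists with a median beyond 2-fold numbered 15, and 12 to 15 under the alternatives. Without untreated replicate 2, the median log2 fold change of the seed storage list was -0.467. Calls of that list numbered 0 of 9 with limma-voom and 1 with the 4 libraries alone, where only 1 of its genes was tested. Over the named genes and alternatives, 989 values kept their side of the threshold, 45 lost the call, 15 gained it and 3 changed sign with a call. Of the 989, 932 kept their sign and 57 changed it, in 17 genes not called in either fit and with a log2 fold change of at most 0.27 either way with TMM. With library size only, LHCB4.3, PGR5, PRPS21, APL, CYP706A6 and ATSPS4F lost their call. Leaving out 1 library ended the calls of LHCB4.3, PGR5, PRPS21, NDB2, MYB51, DGD2, UBQ10, WOX5, APL, CYP706A6, AT5G62240, OLEO2 and CRU3. Depth limits genes with 1 to 3 counts in a group, where leaving out 1 library moved the fitted log2 fold change between 7.84 and 11.28 for AT2G21235, 7.51 and 11.20 for HSP22.0, 7.02 and 11.65 for HSP23.6, and -14.21 and -9.40 for TGG2.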

Other observations

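The MORF proteins are RNA editing factors of plastids and mitochondria. All 8 members with an annotation here were within 2-fold of the untreated level in gun1-9, as were 48.6% of all genes tested. Of the 8, 1 was called higher (4 with library size only), and the median log2 fold change was 0.12. MORF3 had 29.6 and 26.7 CPM in gun1-9, 25.9 and 23.0 CPM in wild type on norflurazon and 20.0 and 20.0 CPM in untreated wild type (adjusted p = 0.00308 by edgeR, log2 fold change 0.49 ± 0.12). MORF4 had 4.99 and 3.91 CPM in gun1-9, 11.8 and 11.4 CPM in wild type on norflurazon and 4.55 and 4.37 CPM in untreated wild type. MORF9 of plastids had 114 and 124 CPM in gun1-9, 89.1 and 57.1 CPM in wild type on norflurazon and 103 and 92.4 CPM in untreated wild type, and MORF8 of both organelles had 128 and 127 CPM in gun1-9, 159.7 and 162 CPM in wild type on norflurazon and 112 and 119 CPM in untreated wild type. In MORF4, wild type on norflurazon lay above gun1-9 and untreated wild type.

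Of 133 loci of the plastid genome, 85 were tested, 8 were called higher, 22 lower and 55 were not called, and 12 lay beyond 2-fold below. Over all genes tested, 29.3% were called higher, 30.8% lower and 11.5% lay beyond 2-fold below. The plastid counts called lower and beyond 2-fold below thus lay near the background. Their sums were 413 and 685 CPM in gun1-9 and 848 and 1329 CPM in untreated wild type, a spread between replicates as wide as much of the difference. The libraries were selected for polyadenylated RNA, which plastid transcripts mostly lack, so these values describe a small remainder.

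Of 4 defence markers, 2 were tested. PR5 had 0.0988 and 0.0430 CPM in gun1-9, 0.335 and 0.249 CPM in wild type on norflurazon and 1.91 and 1.57 CPM in untreated wild type, with 3 counts in gun1-9, 25.03-fold lower (95% counting interval 8.14 to 125) than in untreated wild type (adjusted p = 0.000145). PR1 had 1.43 and 1.85 CPM in gun1-9, 2.01 and 0.820 CPM in wild type on norflurazon and 1.05 and 1.18 CPM in untreated wild type and was not called (adjusted p = 0.253).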
